A study of Mus musculus with 3 samples.

Results

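The 8 genes described here are *Hmgcs1*, *Idi1*, *Fdps*, *Fdft1*, *Sqle*, *Lss*, *Cyp51* and *Insig1*, looked up by symbol among the 31053 genes of the feature tables. They were put forward as cholesterol synthesis and uptake genes. By known function, 7 encode enzymes of cholesterol synthesis and *Insig1* encodes a regulator of it. None of the 8 encodes an uptake protein, so uptake genes were read from a separate list. All 8 had at least 10 UMIs in each library, so no member was left out of any count over members.

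The data are 3 single-cell RNA libraries of CD4+ T cells from the spleens of C57BL/6 mice, 1 library per condition, and the methods give male mice 5 to 10 weeks old. WT cells came from *Ift20* f/f mice without Cre, so the controls carry the floxed allele as well, and IFT20-KO cells came from *Ift20* f/f CD4 cre mice, in which the *Cd4* promoter drives Cre. Cells were enriched for naive CD4+ T cells and sorted as 7-AAD- CD3+ CD4+. Unstimulated WT cells stayed in buffer (time 0 h), while the stimulated WT and the stimulated IFT20-KO cells were cultured for 24 h with antibodies to CD3 and CD28, at 1 μg/mL each. There was no unstimulated IFT20-KO library, and how many mice made up a library is not given in the sources used here.

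With 1 library per condition there is no replicate and no test. A level is a count of molecule tags (UMIs, 1 per RNA molecule caught) per 1000000 of the library's tags (CPM), summed over cells that had above 200 genes and a mitochondrial share below 15%. That filter kept 8031 of 8253 unstimulated WT barcodes, 9903 of 10320 stimulated WT barcodes and 13920 of 13932 IFT20-KO barcodes. Every interval is exact, at the 95% level, and covers counting error only. The kept cells held 37133949, 116979076 and 106435143 UMIs, with medians of 4627, 12167 and 5014.5 per cell. Between 114 and 197 kept barcode sequences were shared by each pair of libraries, at most 1.99% of either. *Ift20* stood at 64.4, 76.0 and 6.60 CPM in the same order, which goes with the labels. *Cd3d*, *Cd3e*, *Cd3g*, *Cd4*, *Trac* and *Trbc2* each stood at 120.1 CPM or more in every library, while *Hbb-bs*, a red cell gene, was at 0 and *Lyz2* and *Ncr1* had at most 0.027 CPM. *Cst3*, a gene of myeloid cells, stood at 76.3 to 80.3 CPM in all 3. *Cd8b1*, a CD8 T cell gene, stood at 28.6, 9.04 and 11.2 CPM, with *Cd8a* at 0.29 CPM or less, and the B cell genes *Cd79a* and *Cd79b* reached at most 2.48 CPM.

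Cells make cholesterol from acetyl-CoA through mevalonate, isoprenoid units, squalene and lanosterol. The pathway is switched on by SREBP2, a membrane-bound transcription factor that SCAP escorts from the endoplasmic reticulum to the Golgi when sterols are low, and INSIG proteins hold that complex back when sterols are high. Lymphocytes that begin to grow and divide need sterols for new membrane and isoprenoids for prenylated proteins, and SREBP activity is known to be required for clonal expansion of T cells.

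Promoters are shown for 4 members because SREBP2 acts on such genes through short elements near the start. The RefSeq promoter table (GRCm38.p6) held 5 of the 8 members, *Cyp51*, *Hmgcs1*, *Idi1*, *Insig1* and *Lss*. The 250 bases before the annotated start are printed 5′ to 3′ on the gene's strand, and capitals mark CACNCCAC (a sterol regulatory element core) and CCAAT (the site of NF-Y, a usual partner of SREBP), each on either strand.
Hmgcs1 (chr13:119690101-119690350, plus strand): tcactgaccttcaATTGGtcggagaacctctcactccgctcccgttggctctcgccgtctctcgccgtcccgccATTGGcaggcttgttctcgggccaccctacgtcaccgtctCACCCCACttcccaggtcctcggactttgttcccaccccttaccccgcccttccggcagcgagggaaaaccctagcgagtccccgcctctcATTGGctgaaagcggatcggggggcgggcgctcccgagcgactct
Insig1 (chr5:28071162-28071411, plus strand): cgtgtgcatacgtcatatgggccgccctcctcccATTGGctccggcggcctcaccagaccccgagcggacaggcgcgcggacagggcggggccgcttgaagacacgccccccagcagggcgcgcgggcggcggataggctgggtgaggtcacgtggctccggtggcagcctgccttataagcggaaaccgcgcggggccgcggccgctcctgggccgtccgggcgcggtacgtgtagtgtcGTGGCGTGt
Idi1 (chr13:8885356-8885605, plus strand): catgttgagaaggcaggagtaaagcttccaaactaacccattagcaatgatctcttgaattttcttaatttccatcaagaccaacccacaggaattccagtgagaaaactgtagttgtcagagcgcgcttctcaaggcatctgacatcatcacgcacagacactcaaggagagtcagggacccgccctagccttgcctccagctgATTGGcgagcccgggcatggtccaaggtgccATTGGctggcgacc
Cyp51 (chr5:4104698-4104947, minus strand): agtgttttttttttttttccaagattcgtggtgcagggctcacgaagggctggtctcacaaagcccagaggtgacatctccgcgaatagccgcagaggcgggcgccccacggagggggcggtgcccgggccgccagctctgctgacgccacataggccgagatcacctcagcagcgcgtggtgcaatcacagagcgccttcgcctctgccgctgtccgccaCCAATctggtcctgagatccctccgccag

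The longer element TCACNCCAC was found in 1 of the 5 member promoters, that of *Hmgcs1*, where TCACCCCAC began 137 bases before the start. It was present in 1.05% of all 32851 promoters searched over the same 250 bases. The shorter CACNCCAC, which TCACNCCAC contains, was found in *Hmgcs1* and also in *Insig1*, against 5.29% of all promoters. CCAAT was found in all 5, against 33.9% of all promoters, and lay 3 times in *Hmgcs1*. GGGCGG, the site of SP1, was in all 5 as well, against 32.7%. The E-box CACGTG, found in 6.02% of all promoters, was in *Insig1* only among the 5. These are matches of letters and do not show binding. The starts are those of RefSeq. In GENCODE M21, *Idi1*, *Insig1* and *Cyp51* start at 8885501, 28071363 and 4104746, within the printed windows. By that annotation the marked sites of *Idi1* and *Cyp51* and the CACNCCAC of *Insig1* lie inside the gene.

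Stimulated WT cells had higher CPM than unstimulated WT cells for 7 of the 8 members, and lower CPM for *Fdps*. Summed over the 8, the level was 156 CPM (152 to 160) in unstimulated WT and 414 CPM (411 to 418) in stimulated WT, a log2 ratio of 1.41 (1.37 to 1.45). Without *Cyp51*, the member with the largest ratio, it was 1.16. Of the 8 members, 5 were at least 2-fold higher in the stimulated library, where 19.3% of the 13297 genes with at least 10 UMIs were. None was 2-fold lower, where 23.0% of those genes were. The median log2 ratio was 1.22 over the members and -0.089 over all those genes. Counted as UMIs per cell, without division by the library total, the median of all genes shifted to 1.26 and the summed members to 2.76. Members were selected with earlier results of these libraries known, so these counts are a description of the genes and not independent evidence.

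*Hmgcs1* encodes the cytosolic synthase that makes HMG-CoA. It stood at 31.2 CPM in unstimulated WT, 57.8 CPM in stimulated WT and 71.2 CPM in stimulated IFT20-KO cells. The log2 ratio of stimulated over unstimulated WT was 0.89 (0.80 to 0.98). The intervals of the 3 levels did not overlap, and the IFT20-KO library was the highest. The same held for *Idi1*, *Fdft1*, *Sqle*, *Cyp51* and *Insig1*. How many of all genes did so was not counted, and their median log2 ratio of IFT20-KO over stimulated WT was 0.14.

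The next members make the isoprenoid units. *Idi1*, the isomerase that interconverts the first isoprenoid units, stood at 19.1, 80.9 and 94.2 CPM in unstimulated WT, stimulated WT and IFT20-KO cells, a log2 ratio of 2.08 (1.97 to 2.19) on stimulation. *Fdps*, which joins these units into farnesyl diphosphate, stood at 16.0, 10.9 and 12.0 CPM. On stimulation its log2 ratio was -0.55 (-0.69 to -0.41). *Fdps* was thus the only member lower after stimulation in CPM, but it was higher as UMIs per cell (a log2 ratio of 0.80, against 1.26 for the median of all genes) and near 0 in cells thinned to 1400 UMIs (0.038, against 0.10). Its counts are less certain than those of the others, since 64.1% of the 50-base stretches of its protein-coding transcripts also occur in transcripts of other genes, mainly pseudogenes, and *Gm43738* overlaps it on the same strand. No UMI of *Gm43738* was counted in any subset of cells in which it was read. The largest stimulated WT subset was 7495 cells of at least 5000 UMIs and under 4% mitochondrial UMIs. Whether and how reads in shared stretches were counted was not tested.

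Squalene is formed and closed into the sterol ring by 3 members. *Fdft1*, squalene synthase, stood at 26.6 CPM in unstimulated WT, 63.0 CPM in stimulated WT and 67.0 CPM in IFT20-KO cells, a log2 ratio of 1.24 (1.15 to 1.34) on stimulation. *Sqle*, the squalene epoxidase and a further control point of the pathway, stood at 13.9, 38.1 and 44.6 CPM. Its log2 ratio on stimulation was 1.45 (1.32 to 1.59). *Lss*, lanosterol synthase, stood at 5.95, 13.7 and 14.03 CPM. For this gene the stimulated WT level gave a log2 ratio of 1.20 (1.00 to 1.41). The ratios of *Fdft1* and *Lss* could not be told apart by counting error, and those of *Fdft1* and *Sqle* had touching intervals.

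*Cyp51*, the lanosterol demethylase, had the largest ratio. It stood at 24.7 CPM in unstimulated WT, 122 CPM in stimulated WT and 158 CPM in IFT20-KO cells, a log2 ratio of 2.30 (2.21 to 2.40) on stimulation. *Insig1*, itself a target of SREBP and the brake on it, stood at 18.5, 28.4 and 31.7 CPM. That gave a log2 ratio of 0.62 (0.50 to 0.74). Among the 7 members that were higher, *Insig1* had the smallest ratio, and its interval lay below those of the other 6.

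**Figure D1:**
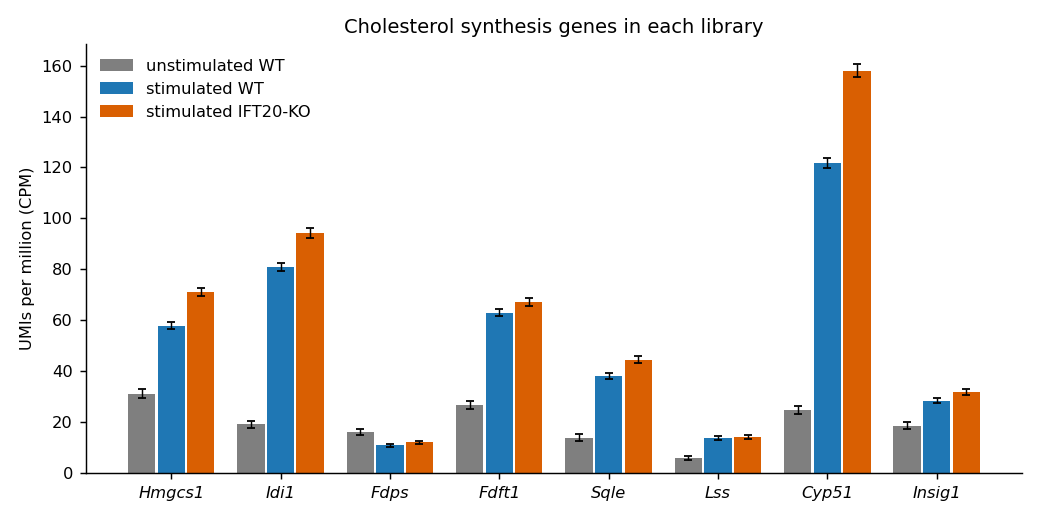
CPM of each member in the 3 libraries (grey, unstimulated WT; blue, stimulated WT; orange, stimulated IFT20-KO). Bars are 1 library each and lines are exact 95% Poisson intervals. The grey bar is the lowest for every member but *Fdps*, and *Cyp51* reaches 122 and 158 CPM.

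In this annotation (GENCODE M21, GRCm38) the members lie on 6 chromosomes, *Cyp51* and *Insig1* on chromosome 5 and *Hmgcs1* and *Idi1* on chromosome 13. *Cyp51* (4081145 to 4104746, minus strand) overlaps *Akap9* on the opposite strand by 166 bases, and *Fdft1* (chromosome 14) overlaps *Ctsb* on the opposite strand by 774 bases. Of the 50-base stretches of *Idi1*, 20.0% occur in other genes' transcripts, as do 10.9% of those of *Fdft1*, 2.49% of those of *Insig1* and 0.15% of those of *Cyp51*. *Hmgcs1*, *Lss* and *Sqle* had no shared stretch.

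Because a deeper cell shows more genes, the share of cells with a UMI was also read in cells of at least 5000 UMIs, thinned to 5000. That left out 60.9% of unstimulated WT, 24.1% of stimulated WT and 49.99% of IFT20-KO cells. A UMI of any member was found in 38.9% of unstimulated WT cells (37.8 to 40.0), 88.0% of stimulated WT cells (87.4 to 88.7) and 87.6% of IFT20-KO cells (87.0 to 88.2) at full depth. In cells thinned to 5000 UMIs the shares were 42.6% of 3143 cells, 76.2% of 7516 cells and 79.8% of 6962 cells. *Cyp51* was then found in 9.90%, 36.4% and 38.3% of cells, and *Idi1* in 7.83%, 29.7% and 32.9%. At this depth *Fdps* again went the other way, with 7.76% of unstimulated WT cells (6.9 to 8.8), 5.43% of stimulated WT cells (4.9 to 6.0) and 5.06% of IFT20-KO cells (4.6 to 5.6). Its shares in the same order were 6.74%, 11.5% and 8.36% at full depth, and 2.02%, 2.08% and 1.98% in cells thinned to 1400 UMIs. Every cell type makes cholesterol, so no type in these libraries could serve to measure free RNA of these genes, and its part in the shares was not tested.

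At 5000 UMIs, 4 or more of the 8 members were seen in 2.61% of unstimulated WT cells, 8.18% of stimulated WT cells and 8.35% of IFT20-KO cells. A small number of unstimulated cells carried many members, with 7 cells showing 7 of the 8, against 3 cells in each stimulated library.

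**Figure D2:**
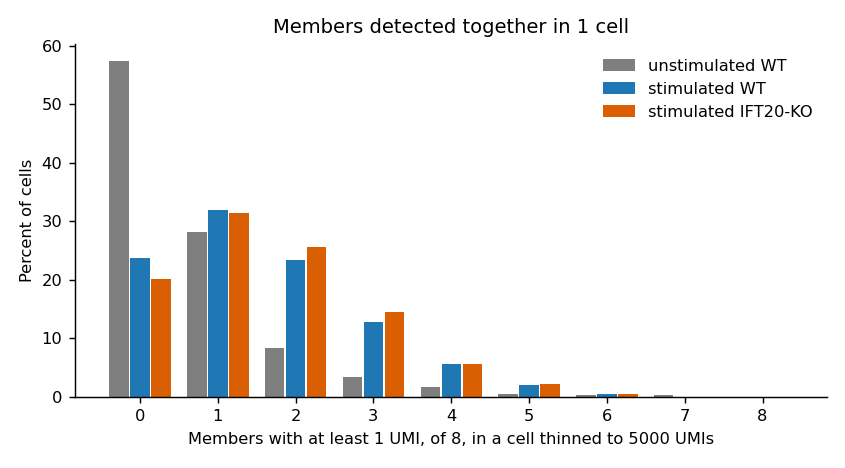
Percent of cells (vertical axis) by the number of members with at least 1 UMI, in cells of at least 5000 UMIs thinned to 5000. Grey, blue and orange bars are unstimulated WT (3143 cells), stimulated WT (7516 cells) and stimulated IFT20-KO (6962 cells); 57.4%, 23.8% and 20.2% of cells had no member.

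The other steps of the pathway were read from a list of 16 further synthesis genes, of which 15 had enough UMIs. In stimulated over unstimulated WT, 5 of the 15 were at least 2-fold higher and 1 was 2-fold lower, with a median log2 ratio of 0.30. *Pmvk*, a kinase of the mevalonate branch, went from 14.7 to 44.5 CPM. *Hsd17b7*, an enzyme of the later sterol steps, had a log2 ratio of 1.12. *Idi2* had no UMI in unstimulated WT and 0.25 CPM in stimulated WT. With 3 counts put in for the empty library it was 3.07-fold higher, and its counting interval began at a log2 ratio of 1.23. Smaller differences were seen for *Ebp* at 61.9 and 70.7 CPM, *Msmo1* at 27.1 and 38.1 CPM and *Dhcr7* at 23.3 and 22.2 CPM. *Lbr*, a sterol reductase that is also a protein of the inner nuclear membrane, was lower, at 155 and 62.2 CPM.

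Genes of uptake and transport of cholesterol did not share a direction. Of 11 measured, 3 were at least 2-fold higher and 3 at least 2-fold lower, with a median log2 ratio of -0.47. The sign of that median depended on the reading. It was -0.80 in cells of at least 5000 UMIs, where the median of all genes was -0.12. In cells thinned to 1400 UMIs, at matched depth and as UMIs per cell it was 0.37, 0.51 and 0.88. The median of all genes was 0.10, 0.18 and 1.26 in these readings. *Scarb1*, which takes up cholesterol from high-density lipoprotein, went from 7.81 to 27.03 CPM. *Stard4*, a sterol carrier, went from 9.99 to 24.1 CPM. *Mylip*, a ubiquitin ligase that limits lipoprotein uptake, was lower, at 56.7 and 5.33 CPM, as was *Lipa*, the lysosomal lipase, at 93.4 and 19.7 CPM. *Npc2*, which carries cholesterol out of lysosomes, stood at 797 and 432 CPM. *Lrp1*, the third of the higher genes, had only 0.027 and 0.11 CPM.

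A list of 6 further genes that control SREBP, which leaves out the member *Insig1*, was lower in stimulated WT in CPM. All 6 had log2 ratios under 0, and under the median of all genes, and 1 of them, *Mbtps1* (site-1 protease), was at least 2-fold lower, with a log2 ratio of -1.11. *Srebf2*, which encodes SREBP2, stood at 65.9 and 59.2 CPM. Between the WT libraries its log2 ratio was -0.15 (-0.22 to -0.087). *Scap* stood at 21.6 and 16.9 CPM and *Insig2* at 24.1 and 17.7 CPM. Against 0 the direction depended on the reading, with *Srebf2* above 0 by median-ratio scaling, 4 of the 6 above 0 in bands of matched depth and all 6 above 0 as UMIs per cell. In these readings the median of all genes was itself 0.080, 0.18 and 1.26. The median of the 6 genes was -0.23, 0.22 and 0.95, above that of all genes at matched depth and below it in the others. In cells thinned to 1400 UMIs, 3 of the 6 were above 0, with a median of 0.050 against 0.10 for all genes. The sterol exporters, targets of the liver X receptors, had the largest differences. *Abca1* went from 5.47 to 0.068 CPM, with a log2 ratio of -6.32 (-7.55 to -5.31), and *Abcg1* went from 34.2 to 3.15 CPM. *Nr1h2*, which encodes a liver X receptor, stood at 68.1 and 76.3 CPM.

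Of 11 genes that use isoprenoids for other products, 3 were at least 2-fold higher (*Rabggtb*, *Pdss1* and *Coq2*) and *Ggps1*, which makes geranylgeranyl diphosphate, was lower at 56.3 and 20.0 CPM. *Fnta*, a subunit shared by protein prenyltransferases, stood at 56.7 and 72.9 CPM. Of 9 fatty acid genes measured, *Acaca* was at least 2-fold higher, and *Acss2*, the acetyl-CoA synthetase, and the barely detected *Acacb* were at least 2-fold lower, *Acss2* at 55.2 and 10.1 CPM. *Fasn* had a log2 ratio of 0.97 (0.87 to 1.07) and *Acly* stood at 56.5 and 53.4 CPM. Over all 6 lists, 13 of 59 genes (22.0%) were at least 2-fold higher and 10 (16.9%) at least 2-fold lower, near the 19.3% and 23.0% of all genes.

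**Figure D3:**
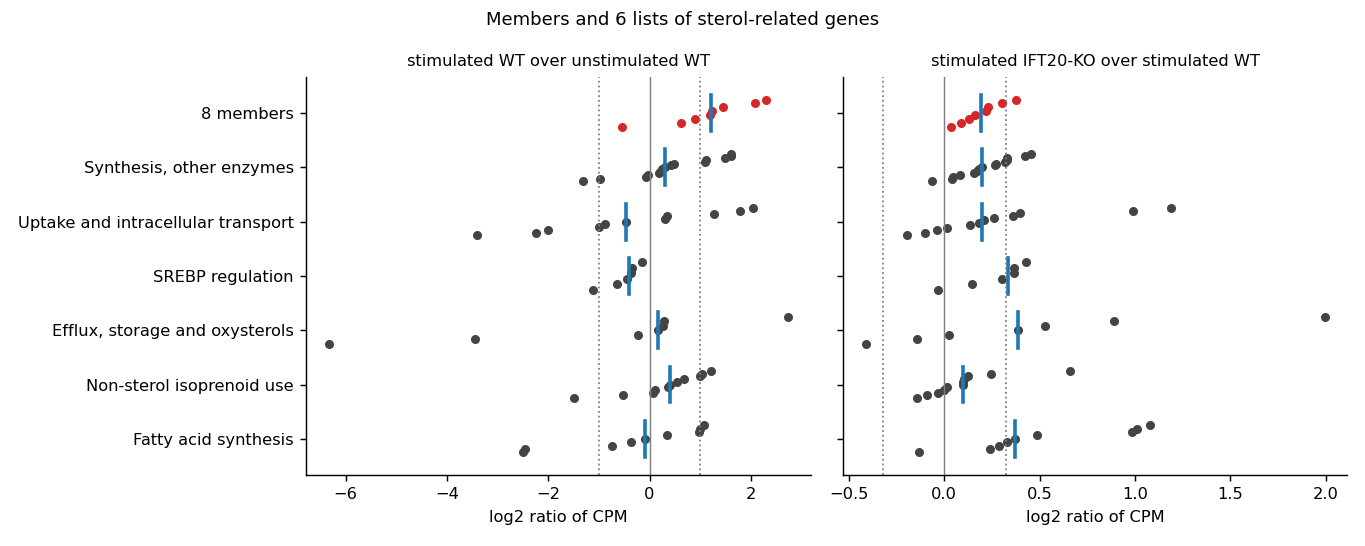
Log2 ratio of CPM for the 8 members (red) and the genes of 6 lists (dark), with at least 10 UMIs, for stimulated over unstimulated WT (left) and stimulated IFT20-KO over stimulated WT (right). Blue bars are list medians and dotted lines mark log2 ratios of 1 (left) and 0.32 (right) in either direction; the axes differ in scale, and the member medians are 1.22 and 0.19.

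In stimulated IFT20-KO over stimulated WT cells, all 8 members had a log2 ratio above 0, from 0.036 for *Lss* (-0.066 to 0.14) to 0.38 for *Cyp51* (0.35 to 0.41). The summed level was 493 CPM (488 to 497) in IFT20-KO and 414 CPM in WT, a log2 ratio of 0.25 (0.23 to 0.27). *Cyp51* was the single member higher by 0.32 or more on the log2 scale, that is 1 of 8, where 30.1% of 13504 genes were. No member was lower by as much, where 6.3% of genes were. The median log2 ratio over all genes was 0.14, and 5 of the 8 members lay above it. Relative to that median the largest member difference was 0.24, for *Cyp51*, and *Lss* lay 0.10 below it.

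*Hmgcs1* had a log2 ratio of 0.30 (0.25 to 0.35), *Sqle* of 0.23 (0.17 to 0.29), *Idi1* of 0.22 (0.18 to 0.26), *Insig1* of 0.16 (0.093 to 0.23), *Fdps* of 0.13 (0.018 to 0.24) and *Fdft1* of 0.089 (0.042 to 0.14). With median-ratio scaling in place of CPM, 4 of the 8 (*Fdps*, *Fdft1*, *Lss* and *Insig1*) lay below 0, and as UMIs per cell all 8 were lower in IFT20-KO cells, which held 3.77 member UMIs per cell against 4.89 in stimulated WT. These scalings move every gene by the same amount, with the median of all genes at -0.034 and -0.49, and 5 of the 8 members lay above that median under each of the 3.

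The depth of a cell moved with these levels. Cells under 5000 UMIs made up 49.99% of the IFT20-KO library but 24.1% of the stimulated WT library. In stimulated WT the summed level was 984 CPM in cells of 2000 to under 5000 UMIs, 333 CPM at 5000 to under 10000 and 397 CPM at 10000 to under 20000, and in IFT20-KO cells these values were 879, 392 and 426 CPM. Between the first and the last of these bands *Cyp51* accounted for most of the difference, at 577 and 108 CPM in stimulated WT and 411 and 115 CPM in IFT20-KO cells. *Insig1* went the same way, at 71.3 and 26.8 CPM in stimulated WT, while *Idi1* stood at 84.5 and 80.1 CPM. In stimulated WT the counting intervals of this ratio included 0 for *Hmgcs1*, *Idi1* and *Lss*. *Lss* stood at 0.19 (-0.30 to 0.64) there. The lower band held 973 stimulated WT cells and 5679 IFT20-KO cells, so the stimulated WT intervals were wider. In IFT20-KO cells the interval of every member lay above 0. There *Hmgcs1* had a log2 ratio of 0.61 (0.52 to 0.69), *Idi1* of 0.58 (0.51 to 0.65) and *Lss* of 0.24 (0.033 to 0.44). The median over all genes was 0.80 in stimulated WT and 0.67 in IFT20-KO cells. *Hmgcs1*, *Idi1*, *Fdft1* and *Lss* lay below it in both. The share of all genes with an interval above 0 was not counted. In unstimulated WT the corresponding *Cyp51* levels were 21.5 and 21.8 CPM.

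The low-UMI cells also differed in RNA content. In stimulated WT, cells of 2000 to under 5000 UMIs had a median mitochondrial share of 10.4% and 16.1% of UMIs from ribosomal protein genes, against 1.24% and 31.1% in cells of 10000 to under 20000 UMIs. In IFT20-KO cells these were 5.75% and 19.9%, against 1.04% and 31.8%. A split of the cells under 5000 UMIs at a mitochondrial share of 4%, chosen after the data were seen, gave *Cyp51* at 96.5 CPM in the 326 stimulated WT cells under 4% and 550 CPM in the 2061 cells at or above it. Cells of at least 5000 UMIs and under 4% stood at 106 CPM. In IFT20-KO cells the *Cyp51* values were 288, 427 and 111 CPM. In unstimulated WT, *Cyp51* was likewise higher in the 939 low-UMI cells at or above 4%, at 64.0 CPM, than in cells of at least 5000 UMIs and under 4%, at 24.7 CPM.

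Other RNAs moved in the same cells. *Malat1*, a nuclear RNA, stood at 9158 CPM in stimulated WT cells under 5000 UMIs and at or above 4%, and at 1132 CPM in cells of at least 5000 UMIs and under 4%. *Akap9*, which overlaps *Cyp51* on the other strand, stood at 236 and 51.8 CPM in these cells. The ratio of low-UMI to high-UMI cells for *Cyp51*, 5.33-fold in stimulated WT, ranked at the percentile 89.5 of 12199 genes, whose median log2 ratio was 0.80. The part of RNA quality, of cell calling or of reads from *Akap9* in the *Cyp51* level was not tested.

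**Figure D4:**
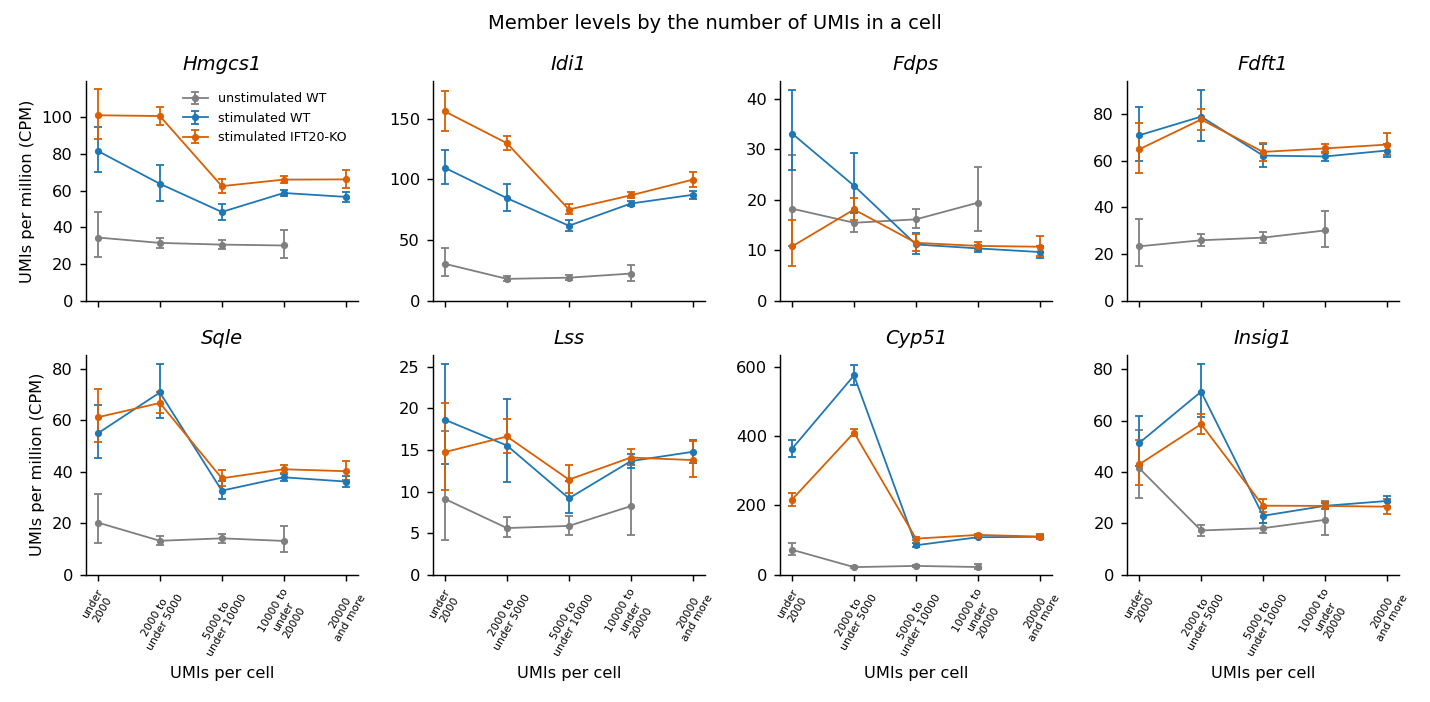
CPM of each member (vertical axes, each with its own scale from 0) by the number of UMIs in a cell (horizontal axes) in unstimulated WT (grey), stimulated WT (blue) and stimulated IFT20-KO (orange) libraries, with exact 95% Poisson intervals. *Cyp51* peaks at 577 and 411 CPM in stimulated cells of 2000 to under 5000 UMIs and lies between 84.8 and 115 CPM in deeper cells.

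Within bands of depth the summed difference between genotypes was small and changed direction. The band under 2000 UMIs was not matched in depth, since 421 stimulated WT cells and 0 IFT20-KO cells had under 1400 UMIs. The summed log2 ratio of IFT20-KO over WT was -0.23 in cells under 2000 UMIs, -0.16 at 2000 to under 5000, 0.24 at 5000 to under 10000, 0.099 at 10000 to under 20000 and 0.093 at 20000 and more. The median over all genes was -0.20 in the first of these bands and between 0.0025 and 0.075 in the others. Single members differed more. *Hmgcs1* and *Idi1* were higher in IFT20-KO cells in every band. *Cyp51* was lower in IFT20-KO cells in the lower pair of bands, with log2 ratios of -0.75 and -0.49. That pair did not match RNA content. Its median mitochondrial shares were 10.03% and 10.4% in stimulated WT, and 4.75% and 5.75% in IFT20-KO cells. Among cells under 5000 UMIs, *Cyp51* was higher in IFT20-KO cells under 4%, at 288 against 96.5 CPM. At or above 4% it was lower, at 427 against 550 CPM. Under 2000 UMIs *Fdps* stood at 33.1 CPM in stimulated WT and 10.7 CPM in IFT20-KO cells, from 71 and 24 UMIs. That log2 ratio was -1.62 (-2.36 to -0.94), against -0.33 (-0.74 to 0.093) for *Fdps* in the next band. In cells of at least 5000 UMIs together, *Hmgcs1* had a log2 ratio of 0.19 (0.14 to 0.24), *Cyp51* of 0.078 (0.039 to 0.12) and *Insig1* of -0.0095 (-0.088 to 0.069), and the summed value was 0.094. None of the 8 members then reached 0.32. The median over all genes in those cells was 0.040, and the share of all genes that reached 0.32 there was not counted.

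The stimulation difference was also found within bands of depth. All 8 members were above 0 in cells of 2000 to under 5000 UMIs and 7 of 8 at 5000 to under 10000, with summed log2 ratios of 2.73 and 1.10. The median over all genes was 0.49 in the first of these bands and -0.11 in the next. *Fdps*, at 0.56 (0.13 to 0.97) and -0.53 (-0.86 to -0.22), had an interval that held that median in the first band and lay below it in the next. In cells of at least 5000 UMIs the *Fdps* levels were 16.4 CPM in unstimulated WT and 10.2 CPM in stimulated WT. The bands match depth but not RNA content. At 2000 to under 5000 UMIs the median mitochondrial share was 2.27% in unstimulated WT and 10.4% in stimulated WT. Ribosomal protein genes gave 33.6% and 16.1% of UMIs there. At 5000 to under 10000 UMIs these values were 2.26% and 1.49%, and 35.8% and 32.8%.

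**Figure D5:**
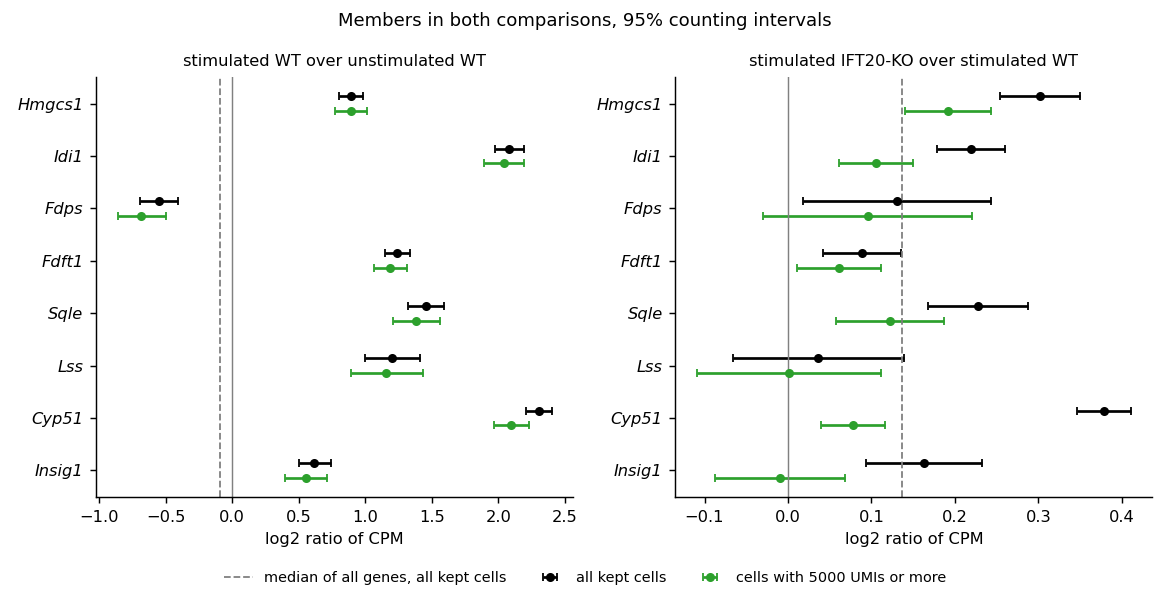
Log2 ratio of CPM for each member, stimulated over unstimulated WT (left) and stimulated IFT20-KO over stimulated WT (right), in all kept cells (black) and in cells of at least 5000 UMIs (green), with exact 95% counting intervals. The horizontal scales differ; on the right *Cyp51* goes from 0.38 to 0.078 and *Insig1* from 0.16 to -0.0095.

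The lists behaved likewise between genotypes. Over all 6 lists, 22 of 60 genes (36.7%) were higher in IFT20-KO cells by 0.32 or more (log2), against 30.1% of all genes. Only 1 (1.67%) was lower by as much, against 6.3% of all genes. In cells of at least 5000 UMIs, 6 were higher and 2 lower, and the shares of all genes there were not counted. *Lbr* went from a log2 ratio of 0.45 to 0.12 in those cells and *Npc1*, the lysosomal cholesterol transporter, from 0.99 to 0.33. *Scd2*, a fatty acid desaturase, kept the largest value of those named, with log2 ratios of 1.08 and 0.65 and levels of 5.401 CPM in WT and 8.50 CPM in IFT20-KO cells of at least 5000 UMIs. *Npc2* was lower in both readings, at log2 ratios of -0.20 and -0.23.

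Among cells thinned to 5000 UMIs, the members were compared between cells with and without a UMI of a state marker. In unstimulated WT, the summed level was 144 CPM in 2316 cells with *Il7r*, a naive cell receptor, and 188 CPM in 827 cells without it, a log2 ratio of -0.38 (-0.51 to -0.26). In stimulated WT it was 391 CPM with *Il2ra*, the activation receptor for interleukin 2, and 383 CPM without it. Cells with *Il2* had *Cyp51* at 123 CPM, against 101 CPM without it, in stimulated WT and 134 against 108 CPM in IFT20-KO cells. *Fdft1* went the other way in stimulated WT, at 51.2 CPM with *Il2* and 61.1 CPM without it, and the summed members had log2 ratios of 0.080 (0.0083 to 0.15) and 0.14 (0.064 to 0.21). Cells with *Mki67*, a gene of dividing cells, had a summed level of 436 CPM and the others 386 CPM in stimulated WT. In IFT20-KO cells these were 434 and 412 CPM. The log2 ratios were 0.18 (0.027 to 0.32) and 0.077 (-0.040 to 0.19). Unstimulated WT was not split by *Mki67*, left in 12 cells. Split by *Il2ra*, it had 196 CPM in 104 cells with it and 155 CPM without it, a log2 ratio of 0.34 (0.044 to 0.63). All 4 summed levels of the *Mki67* split lay above those of the unstimulated *Il7r* and *Il2ra* splits.

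Across cells of at least 5000 UMIs, thinned to that depth, the members varied together weakly. All 28 pairs had a Pearson correlation above 0 in each library, with medians of 0.125 in unstimulated WT, 0.056 in stimulated WT and 0.051 in IFT20-KO cells. The lowest pairs stood at 0.0024, 0.026 and 0.0054 in the same order. The share of other gene pairs above 0 was not counted. The highest pair was *Cyp51* with *Hmgcs1* in all 3, at 0.219, 0.153 and 0.135. *Lss* correlated least with the sum of the other 7, at 0.086, 0.071 and 0.064. These cells share a library and the counts are sparse, so the values are descriptive.

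Correlations with the summed members over 7516 stimulated WT cells were ranked for 2760 genes with at least 50 CPM, whose median was 0.008. Among the 10 highest were *Hspa8*, *Srsf2*, *Tmem97*, *Actg1*, *Pcbp1*, *Eif4a1*, *Lcp1*, *Erg28* and *Hspa5*, from 0.114 down to 0.079, and 5 of the 10 were among the 10 of the IFT20-KO library. *Srebf2* was the most like the members in unstimulated WT, at 0.135, and stood at 0.061 and 0.076 in the stimulated libraries. *Msmo1*, the sterol methyl oxidase that acts after *Cyp51* in the pathway, had correlations of 0.253 in unstimulated WT, 0.175 in stimulated WT and 0.198 in IFT20-KO cells. *Abcg1* lay below 0 in all 3, at -0.065, -0.041 and -0.040.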

How the data were processed

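Single-cell RNA of mouse spleen CD4+ T cells was measured in 3 libraries. The authors aligned reads to mm10, called barcodes and counted UMIs with Cell Ranger, version 3.1.0 per the file headers, and deposited whole-number counts per gene and barcode without normalization. The methods name a 3′ kit and the labels a 5′ kit, so which end of a transcript was read is uncertain.

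From these counts, barcodes above 200 genes and below a mitochondrial share of 15% were kept, and UMIs were summed per library and divided by the library total (CPM). Doublets were not removed. The groups are the 3 labelled conditions, and the comparisons are stimulated over unstimulated WT and stimulated IFT20-KO over stimulated WT. Intervals at the 95% level are exact Poisson (levels), exact binomial (log2 ratios of UMIs) and Clopper-Pearson (shares). Genes needed at least 10 UMIs over both libraries, and a library at 0 was set to 3 counts. Differences were counted from a log2 ratio of 1 in the first comparison and of 0.32 in the second. UMIs were thinned without replacement with a fixed seed, and cells with fewer UMIs than the target were left out. The calculations were tested on simulated data.

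The members, the 6 gene lists and the depth bands were chosen with earlier results of these data known. Named genes are the members, listed genes with at least 50 CPM in any library and the 10 genes most like the members. Other listed genes named in the text were chosen after their values were seen. Some genes that the rule names are not reported here, though counts over lists include them. Gene positions and transcripts came from GENCODE M21, which held 31011 of the 31053 gene identifiers, and promoters from RefSeq. Alternatives were other scalings, filters, depths, minimums of UMIs per gene and motif lengths. Python 3.11.15, numpy 2.4.6, scipy 1.17.1, pandas 2.3.3 and matplotlib 3.10.9 were used.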

Additional observations from a re-analysis of the deposited data

How the results depend on the processing

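No paired analysis was possible because each condition had 1 library and no test was made. The summed members stayed higher in stimulated than in unstimulated WT under every alternative run. Their log2 ratio, 1.41 in CPM, was 1.58 with median-ratio scaling, 2.76 as UMIs per cell, 1.63 as the mean of per-cell fractions, 1.32 in cells with at least 5000 UMIs, 1.69 in cells thinned to 1400 UMIs and 1.74 in bands of matched depth. Bands of matched depth did not match the mitochondrial share of the cells. With choices added once the data were known, the summed log2 ratio was 1.36 in cells under 4% mitochondrial UMIs and 1.16 without *Cyp51*. *Fdps* turned to 0.80 as UMIs per cell and 0.038 when thinned to 1400 UMIs. Of listed genes, 39 were 2-fold higher and 5 lower as UMIs per cell, against 13 and 10 in CPM. As UMIs per cell the median log2 ratio of all genes was itself 1.26. The share of all genes 2-fold higher or lower was not counted there.

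The summed ratio of IFT20-KO over stimulated WT, 0.25 in CPM, was 0.080 with median-ratio scaling, -0.38 as UMIs per cell, 0.32 as the mean of per-cell fractions, 0.29 with only barcodes above 1000 genes and below a mitochondrial share of 10%, 0.094 in cells with at least 5000 UMIs, 0.37 when thinned to 1400 UMIs, 0.27 without the 5% of cells with the most UMIs and 0.056 at matched depth. It was 0.15 in cells under 4% mitochondrial UMIs and 0.19 without *Cyp51*. As UMIs per cell, where the median of all genes was -0.49, *Hmgcs1* turned to -0.33, *Idi1* to -0.41, *Fdps* to -0.50, *Fdft1* to -0.54, *Sqle* to -0.40, *Cyp51* to -0.25 and *Insig1* to -0.46. With median-ratio scaling, *Fdps* was -0.040, *Fdft1* -0.082 and *Insig1* -0.0080. At matched depth, *Fdps* was -0.039, *Cyp51* -0.10 and *Insig1* -0.055. Those bands did not match the mitochondrial share, and stimulated WT, but not IFT20-KO, had kept cells under 1400 UMIs. *Insig1* was -0.0095 in cells with at least 5000 UMIs, and *Fdps* was -0.075 as the mean of per-cell fractions and -0.073 when thinned to 1400 UMIs.

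Listed genes higher in IFT20-KO cells by at least 0.32 (log2), 22 in CPM, numbered 9 with median-ratio scaling, 6 as UMIs per cell, 6 in cells with at least 5000 UMIs, 4 at matched depth and 10 under 4% mitochondrial UMIs. Those lower, 1 in CPM, numbered 2, 37, 2 and 4 under the first 4 of these, 2 when thinned to 1400 UMIs, 0 with at least 200 UMIs per gene and 5 with at least 1. Those higher numbered more than 22 with only barcodes above 1000 genes and below a mitochondrial share of 10%, and when thinned to 1400 UMIs. Shares of all genes past these limits were counted only for CPM over all kept cells. Shares of cells with a UMI of a member were 16.5%, 43.3% and 53.2% of unstimulated WT, stimulated WT and IFT20-KO cells thinned to 1400 UMIs, and 42.6%, 76.2% and 79.8% thinned to 5000. The IFT20-KO library gave 5 of the 10 genes most like the members in stimulated WT, and the shorter motif was found in 2 promoters in place of 1. Apart from the arithmetic of each scaling, the cause was not tested.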
